A study of Homo sapiens with 8 samples.

Results

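The genes examined here are 9 genes of antigen presentation by major histocompatibility complex (MHC) class I, namely HLA-B, HLA-C, HLA-E, HLA-F, B2M, NLRC5, TAPBP, TAPBPL and ERAP1. They were chosen by symbol among the 60664 genes of the count table, with earlier results of these data known. Shares of all genes tested are therefore set beside the numbers of genes called as a description only. All 9 genes had counts and passed the expression filter that kept 15066 genes for testing. The counts come from A549, a human lung adenocarcinoma cell line, in 8 RNA-seq libraries, 2 per condition. Cells were left untreated, or received the kinase inhibitor AX-0085 (AX0085 in the labels) at 0.5 μM, IFN-γ at 20 ng, for which the labels give no volume, or the combination of IFN-γ and AX-0085. AX-0085 was added 24 h after IFN-γ and the cells were collected another 24 h later, so that cells given both had been exposed to IFN-γ for a day when the inhibitor came. All groups are of the same line, and the labels name no vehicle.

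MHC class I molecules display peptides from inside the cell to CD8 T cells. Each consists of a heavy chain, encoded by an HLA gene, and the shared light chain β2-microglobulin. Peptides are cut by the proteasome, carried into the endoplasmic reticulum by the TAP transporter, trimmed there by aminopeptidases such as ERAP1 and fitted to the heavy chain with the help of tapasin (TAPBP) and the tapasin-related protein TAPBPR (TAPBPL). NLRC5 is a transactivator of class I genes and acts at a promoter module of W/S, X and Y boxes. IFN-γ is known to raise class I presentation through JAK kinase signaling, in epithelial cells as elsewhere.

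By GENCODE 44 (GRCh38), 5 of the genes lie on chromosome 6, namely HLA-F (ENSG00000204642, chr6:29722775-29738528, plus strand), HLA-E (ENSG00000204592, chr6:30489509-30494194, plus strand), HLA-C (ENSG00000204525, chr6:31268749-31272130, minus strand), HLA-B (ENSG00000234745, chr6:31353872-31367067, minus strand) and TAPBP (ENSG00000231925, chr6:33299694-33314284, minus strand). The others are ERAP1 (ENSG00000164307, chr5:96760810-96808100, minus strand), TAPBPL (ENSG00000139192, chr12:6451690-6466517, plus strand), B2M (ENSG00000166710, chr15:44711358-44718851, plus strand) and NLRC5 (ENSG00000140853, chr16:56989485-57083531, plus strand).

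Total counts lay between 20672828 and 29978251 per library, and 3 counts, used as the detection limit, equal 0.0959 to 0.158 CPM (the usual library-size scaling of counts, here with TMM factors). Such limits cover counting error only. Of 7 epithelial markers, 6 had at least 10 counts in every library, and the list summed to between 5758 and 9547 CPM. It was lowest with AX-0085 alone (5758 to 6088 CPM) and highest in untreated cells (8817 to 9547 CPM), and its part in the results was not tested. Of 8 leukocyte markers, 5 had no count in any library, among them CD3D, CD3E, MS4A1 and CD68, and the list summed to at most 2.18 CPM. Exons of another annotated gene cover 85.6% of the exon bases of CD68, so its lack of counts says little about its expression. Libraries of a group differed by more than counting noise (chi-square per degree of freedom between 8.55 and 27.7). The study describes duplicate cell samples for each condition but not whether they were cultured independently, so the p-values measure only the spread between these samples, part of which may be technical. With 2 libraries against 2, an exact permutation test cannot give a two-sided p under 0.333, so genes were tested only in the edgeR model across all genes. A gene was called where the Benjamini-Hochberg-adjusted p of the quasi-likelihood test was under 0.05 and the change exceeded 2-fold. SE stands for the standard error on the log2 scale.

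IFN-γ raised 8 of the 9 genes past both thresholds, against 10.3% of all genes tested that were called higher. TAPBP was the exception. The median log2 fold change was 3.73 over the 9 genes and -0.06 over all genes tested. In bulk RNA a higher level per cell and a larger share of expressing cells cannot be told apart.

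**Figure D1:**
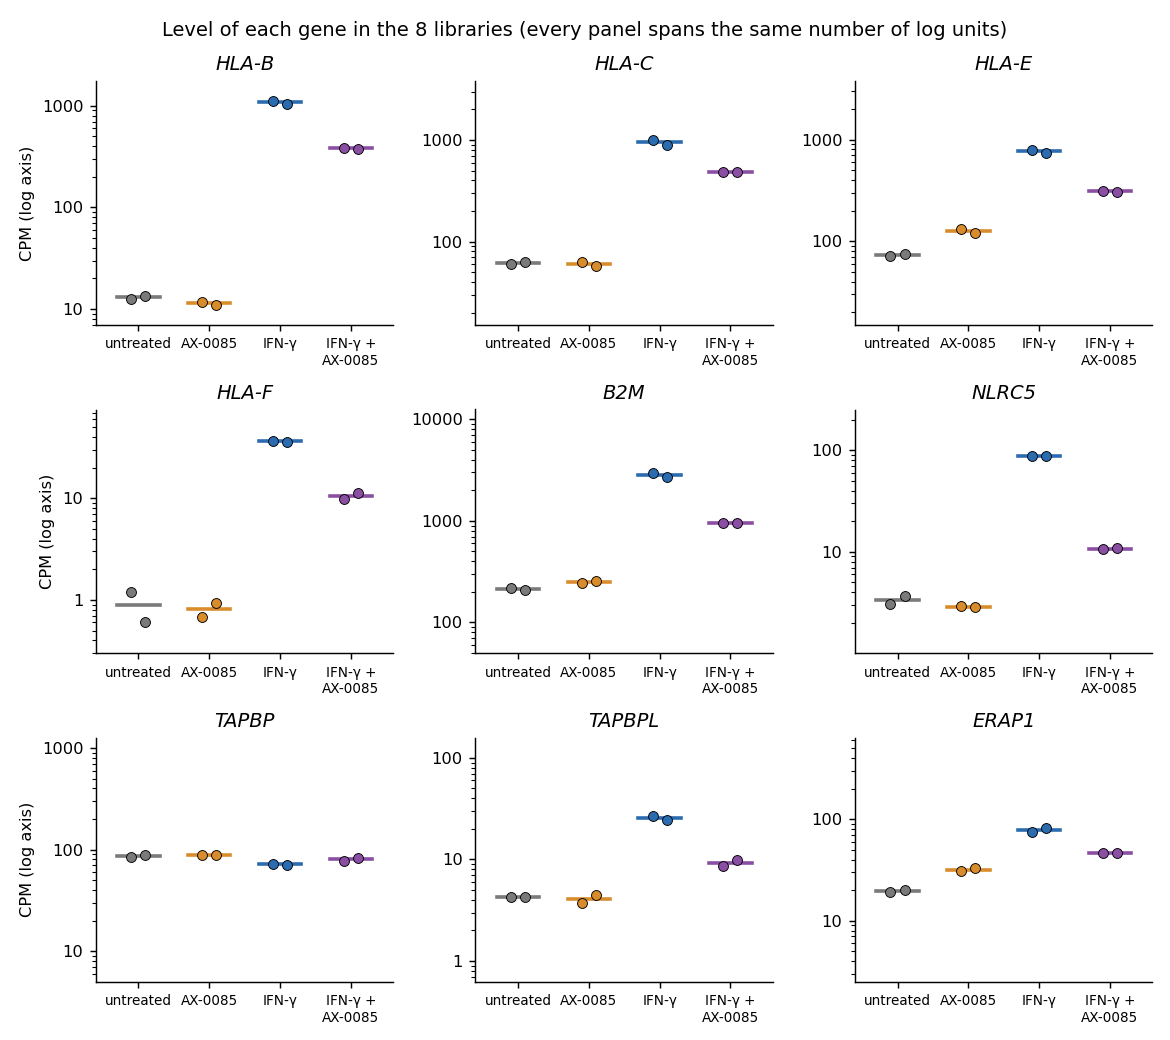
Level of each of the 9 genes (CPM, log axis, every panel spanning the same number of log units) in the 2 libraries of each group, with a point for each library and a line at the group mean. In every panel except that of TAPBP the IFN-γ libraries are highest and those with both IFN-γ and AX-0085 come next.

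HLA-B and HLA-C encode classical heavy chains, which present peptides to T cells and are also read by receptors of NK cells. HLA-B was at 12.5 and 13.4 CPM without treatment, at 11.7 and 10.9 under AX-0085, at 1120 and 1043 under IFN-γ, and at 388 and 380 under the combination. The IFN-γ libraries were far above the untreated ones, and the log2 fold change was 6.38 (SE 0.08, edgeR adjusted p = 9.406e-15), or 83.4-fold. By the size of this rise HLA-B had rank 31 among the 15066 genes tested. HLA-C was at 59.6 and 62.4 CPM without treatment, at 62.9 and 57.6 under AX-0085, at 1003 and 899 under IFN-γ, and at 482 and 489 under the combination. Its untreated and AX-0085 libraries overlapped and all 4 libraries with IFN-γ stood apart from them. The rise with IFN-γ was 15.6-fold, a log2 fold change of 3.96 (SE 0.08, edgeR adjusted p = 3.885e-13).

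HLA-E and HLA-F encode non-classical heavy chains. HLA-E, which presents mainly leader peptides of other class I molecules to the CD94/NKG2A receptor of NK cells, was at 71.7 and 75.1 CPM without treatment, at 131 and 120 under AX-0085, at 790 and 741 under IFN-γ, and at 309 and 308 under the combination. No groups overlapped, and the rise with IFN-γ was 10.4-fold (log2 change 3.38, SE 0.07, edgeR adjusted p = 5.069e-13). HLA-F was scarce, at 1.19 and 0.611 CPM without treatment (36 and 15 counts), at 0.677 and 0.940 under AX-0085, at 36.7 and 36.0 under IFN-γ, and at 9.91 and 11.3 under the combination. Its untreated libraries differed by 1.95-fold, the widest gap between replicates among the 9 genes, and overlapped with those of AX-0085. IFN-γ raised HLA-F 38.9-fold, a log2 fold change of 5.28 (SE 0.18, edgeR adjusted p = 3.049e-11). The size rests on the untreated libraries, as it was 5.93 without untreated replicate 1 and 4.93 without untreated replicate 2.

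HLA genes resemble each other, and reads could be exchanged between them in counting. No window of 100 bases in the canonical transcripts of HLA-B and HLA-F is shared with another HLA gene in GENCODE 44, and 0.277% of the windows of HLA-C and 0.612% of those of HLA-E are. The line's own alleles were not analysed here. When the counts of the 4 HLA genes were summed, which does not depend on how reads were split among them, IFN-γ raised the sum 19.1-fold (log2 change 4.26, SE 0.08, edgeR adjusted p = 3.026e-13). Exons of other annotated genes on either strand cover 47.3% of the exon bases of HLA-B, 28.0% of HLA-F and 21.0% of TAPBP. They cover 11.5% of TAPBPL and 10.2% of ERAP1. On the gene's own strand the cover is 32.7% for HLA-B, 0.91% for TAPBPL and 0% for HLA-F, TAPBP and ERAP1. Whether counting used the strand is not given. The values of these genes, HLA-B above all, are thus less certain than those of HLA-C, HLA-E, B2M and NLRC5, which have no such overlap.

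B2M encodes β2-microglobulin, which classical heavy chains need to reach the cell surface. It was at 217 and 211 CPM without treatment, at 242 and 254 under AX-0085, at 2945 and 2728 under IFN-γ, and at 947 and 962 under the combination. The 4 groups did not overlap, and the rise with IFN-γ was 13.3-fold (log2 change 3.73, SE 0.07, edgeR adjusted p = 3.885e-13). The counts of the 4 HLA genes per count of B2M were 0.694 ± 0.0347 (SD, n = 2) without treatment, 0.799 ± 0.0741 under AX-0085, 0.999 ± 0.0034 under IFN-γ and 1.24 ± 0.015 under the combination. This ratio, which does not depend on the scaling of libraries, was highest with both treatments. Together the 9 genes took 0.0485% ± 0.000947 (SD, n = 2) of all counts without treatment, 0.0586% ± 9.72e-05 under AX-0085, 0.557% ± 0.00998 under IFN-γ and 0.234% ± 0.00524 under the combination.

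NLRC5 was at 3.07 and 3.66 CPM without treatment (93 and 90 counts), at 2.91 and 2.86 under AX-0085, at 87.6 and 88.3 under IFN-γ, and at 10.6 and 10.8 under the combination. The libraries with IFN-γ alone lay close together and far above the rest. IFN-γ raised NLRC5 26.2-fold, a log2 fold change of 4.71 (SE 0.10, edgeR adjusted p = 5.069e-13). The 95% interval of this change, from 4.51 to 4.92, lies above those of HLA-C, HLA-E and B2M and below that of HLA-B.

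The promoters are shown because the known sites of NLRC5 and of interferon-induced factors lie there. RefSeq promoter sequences (GRCh38.p14) were found for 7 of the 9 genes, all but HLA-E and NLRC5, and 5 motifs were searched on both strands. They were GAAA, any 2 bases and GAAA, the core of the interferon-stimulated response element (ISRE), TTC, any 3 bases and GAA, the gamma-activated site of IFN-γ signaling, TGACG, a core of the X2 box, CCAAT, the Y box bound by NF-Y, and GGGGA, any base and TCCCC, a κB site. Capitals mark matches on either strand. Each line gives the 250 bases before the annotated start, 5′ to 3′ on the strand of the gene, and positions are counted from that start, negative before it.
HLA-B, chr6:31357180-31357429, minus strand: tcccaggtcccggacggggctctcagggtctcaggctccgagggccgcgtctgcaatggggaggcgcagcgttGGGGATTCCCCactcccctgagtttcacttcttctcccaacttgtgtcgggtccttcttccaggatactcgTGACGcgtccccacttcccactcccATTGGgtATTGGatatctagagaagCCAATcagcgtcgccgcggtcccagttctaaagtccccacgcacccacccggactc
HLA-C, chr6:31272093-31272342, minus strand: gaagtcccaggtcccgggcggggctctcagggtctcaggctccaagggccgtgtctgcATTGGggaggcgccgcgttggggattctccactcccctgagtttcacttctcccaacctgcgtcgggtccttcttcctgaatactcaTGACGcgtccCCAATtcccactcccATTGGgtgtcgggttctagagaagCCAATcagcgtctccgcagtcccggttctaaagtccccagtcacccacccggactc
HLA-F, chr6:29723184-29723433, plus strand: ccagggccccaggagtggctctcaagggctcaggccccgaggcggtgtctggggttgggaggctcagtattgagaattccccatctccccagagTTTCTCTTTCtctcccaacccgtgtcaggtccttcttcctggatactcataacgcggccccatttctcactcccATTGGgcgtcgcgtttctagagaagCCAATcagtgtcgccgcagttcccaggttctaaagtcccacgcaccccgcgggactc
B2M, chr15:44711267-44711516, plus strand: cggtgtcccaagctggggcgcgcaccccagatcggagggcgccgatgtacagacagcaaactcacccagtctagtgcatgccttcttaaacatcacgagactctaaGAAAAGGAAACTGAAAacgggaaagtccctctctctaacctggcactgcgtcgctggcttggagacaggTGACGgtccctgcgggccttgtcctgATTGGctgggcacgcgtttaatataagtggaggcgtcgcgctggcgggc
TAPBP, chr6:33314079-33314328, minus strand: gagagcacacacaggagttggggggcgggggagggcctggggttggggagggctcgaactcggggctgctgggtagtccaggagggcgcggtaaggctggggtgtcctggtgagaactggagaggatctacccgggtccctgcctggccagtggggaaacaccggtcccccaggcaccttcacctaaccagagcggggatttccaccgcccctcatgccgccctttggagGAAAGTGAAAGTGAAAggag

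The κB match of HLA-B, at -177 to -167, was held by 0.074% of the 35116 RefSeq promoters of 300 bases (250 before and 50 after the start). TGACG occurred in HLA-B at -106 to -102, in HLA-C at -105 to -101 and in B2M at -75 to -71, and 24.6% of all promoters hold it. CCAAT was found in HLA-B, HLA-C, HLA-F, B2M and 1 promoter of ERAP1, and in 34.6% of all promoters. HLA-B and HLA-C each had a match on the gene's strand at -56 to -52, and that of HLA-F lay 1 base farther from the start, at -57 to -53. HLA-C had another on its strand at -95 to -91. Matches on the other strand lay at -81 to -77 and -74 to -70 in HLA-B and at -192 to -188 and -80 to -76 in HLA-C. Those of HLA-F and B2M lay at -82 to -78 and -49 to -45. Which match serves as a Y box was not tested.

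The ISRE core, held by 3.57% of all promoters, was found in HLA-F on the other strand at -156 to -147, as an overlapping pair in B2M from -144 to -129, and as an overlapping pair in TAPBP from -20 to -5. ERAP1 had 1 match on the other strand, at 3 to 12. HLA-B and HLA-C held no match to the ISRE core. The gamma-activated site, held by 7.66% of all promoters, was not matched in any of the 7 genes, and TAPBPL had no match to any motif in its 2 annotated promoters. A missing match says only that these letters are not in this window. TAPBP and B2M each held an ISRE pair, at different distances from the start, and whether any match acts in these cells was not tested.

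**Figure D2:**
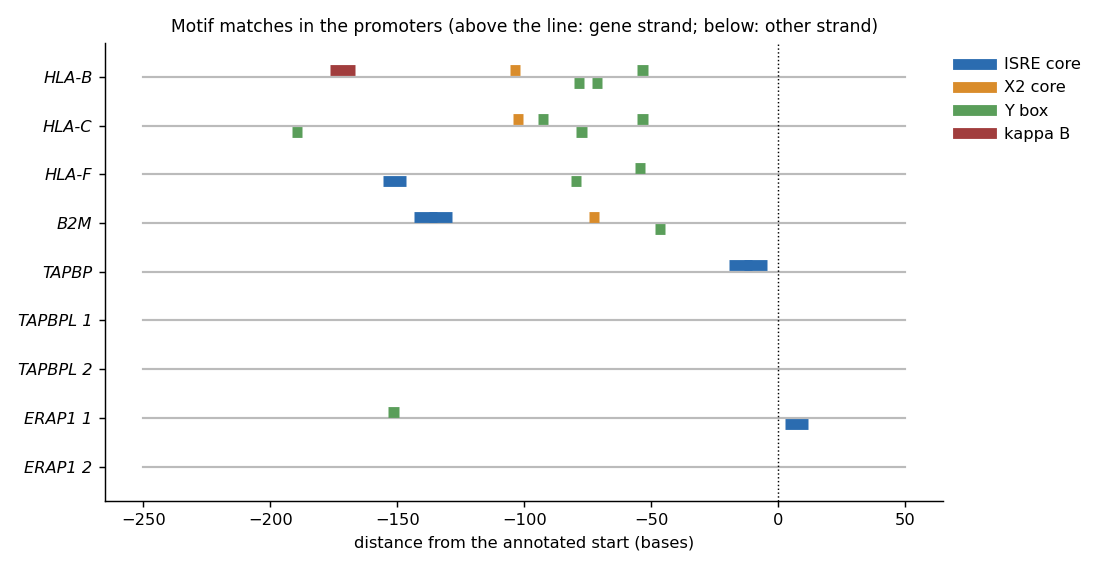
Positions of motif matches in 9 annotated promoters of 7 of the genes, in bases from the annotated start, with marks above a line on the gene's strand and marks below it on the other strand. HLA-B, HLA-C and B2M hold an X2 core with a Y box nearer the start, and the overlapping ISRE pairs of B2M and TAPBP appear as single wide marks.

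The peptide loading genes did not move alike. TAPBP, whose product tapasin holds the heavy chain to the TAP transporter, was at 85.2 and 88.4 CPM without treatment, at 89.0 and 89.1 under AX-0085, at 72.6 and 70.6 under IFN-γ, and at 77.3 and 83.6 under the combination. The IFN-γ libraries were the lowest of the 8, and the log2 fold change against untreated cells was -0.28 (SE 0.06, edgeR adjusted p = 0.001493), which is not past the fold threshold. By the adjusted p alone 36% of all genes tested were lower with IFN-γ. The change of TAPBP was -0.23 with RLE size factors and -0.39 with library size alone, a scaling that moved the median of all genes from -0.06 to -0.18.

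TAPBPL encodes TAPBPR, a peptide editor that works apart from the TAP complex. It was at 4.27 and 4.31 CPM without treatment, at 3.70 and 4.48 under AX-0085, at 26.6 and 24.7 under IFN-γ, and at 8.66 and 9.93 under the combination. Untreated and AX-0085 libraries overlapped, and IFN-γ raised TAPBPL 5.96-fold (log2 change 2.57, SE 0.12, edgeR adjusted p = 5.962e-10). TAPBPL counts were 4.94% ± 0.0901 (SD, n = 2) of TAPBP counts without treatment, 4.59% ± 0.609 under AX-0085, 35.8% ± 1.14 under IFN-γ and 11.5% ± 0.480 under the combination. The balance between these chaperone genes was thus shifted in every library with IFN-γ, whatever the scaling.

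ERAP1, which trims peptides to the length that heavy chains bind, was at 19.2 and 20.1 CPM without treatment, at 30.5 and 32.9 under AX-0085, at 74.9 and 81.9 under IFN-γ, and at 46.8 and 46.9 under the combination. None of the 4 groups overlapped. IFN-γ raised ERAP1 3.99-fold (log2 change 1.998, SE 0.08, edgeR adjusted p = 1.622e-10), the smallest rise among the 8 genes called.

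When AX-0085 followed IFN-γ, 6 of the 9 genes were called lower than with IFN-γ alone, against 8.28% of all genes tested. NLRC5 had the largest change of the 9, a log2 fold change of -3.04 (SE 0.08, edgeR adjusted p = 7.005e-12), or 8.21-fold lower. Its 95% interval, from -3.21 to -2.86, lies below those of the 8 other genes. HLA-F was 3.44-fold lower, B2M 2.97-fold, HLA-B 2.82-fold, TAPBPL 2.77-fold and HLA-E 2.48-fold. The libraries of the 2 groups did not overlap in any of the 9 genes, called or not. The share of all genes tested without overlap was not counted, so this separation is only a description.

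HLA-C and ERAP1 were lower by less than the fold threshold. HLA-C was 1.96-fold lower (log2 change -0.97, SE 0.07, edgeR adjusted p = 3.991e-08), and it passed the threshold with the DESeq2 Wald test and with RLE size factors (-1.01 in each) and without replicate 2 of IFN-γ (-1.05). ERAP1 was 1.67-fold lower (log2 change -0.74, SE 0.08, edgeR adjusted p = 1.502e-06). TAPBP differed in the other direction, by 0.17 on the log2 scale (SE 0.06, edgeR adjusted p = 0.03185), and the change was 0.13 with RLE size factors (edgeR adjusted p = 0.09085) and 0.29 with library size alone (edgeR adjusted p = 0.001364), which moved the median of all genes from 0.03 to 0.16. Summed, the 4 HLA genes were 2.38-fold lower than with IFN-γ alone (log2 change -1.25, SE 0.07, edgeR adjusted p = 4.824e-09).

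With AX-0085 alone, 0 of the 9 genes were called in either the edgeR or the DESeq2 test, against 12% of all genes tested in edgeR. An unadjusted p under 0.05 was found for 4 of them and an adjusted p under 0.05 for 3, where 53.3% of all genes tested had the latter. HLA-E was 1.71-fold higher (log2 change 0.77, SE 0.06, edgeR adjusted p = 5.675e-07), ERAP1 1.61-fold higher (adjusted p = 1.184e-05 in edgeR) and B2M 1.16-fold higher (adjusted p = 0.01459 in edgeR). For NLRC5 the log2 fold change was -0.22 with a 95% interval from -0.51 to 0.08. For HLA-B it was -0.20 with an interval from -0.38 to -0.01, and the adjusted p in edgeR was 0.06968. HLA-F was too scarce without IFN-γ for a narrow estimate, and its interval ran from -0.89 to 0.50.

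The effect of IFN-γ in cells that later received AX-0085 was measured between cells given both and cells given AX-0085 alone. These groups share no library with the comparison of IFN-γ and untreated cells. Cells given both had 24 h of IFN-γ before the inhibitor, and RNA made before and after its addition was not told apart. Here 7 of the 9 genes were called higher, where 1.79% of all genes tested were. HLA-B was 33.9-fold higher, HLA-F 12.9-fold, HLA-C 8.06-fold, B2M 3.85-fold, NLRC5 3.71-fold, HLA-E 2.46-fold and TAPBPL 2.25-fold. By this measure HLA-B had rank 9, HLA-F rank 19 and HLA-C rank 30 among all genes tested. ERAP1 was 1.48-fold higher (log2 change 0.56, SE 0.08, edgeR adjusted p = 0.0001328) and was not called. The interval of NLRC5, from 1.65 to 2.14, lay below that of HLA-C (2.85 to 3.17) and overlapped with that of B2M (1.80 to 2.09), whereas without AX-0085 NLRC5 had the larger change of the 3.

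**Figure D3:**
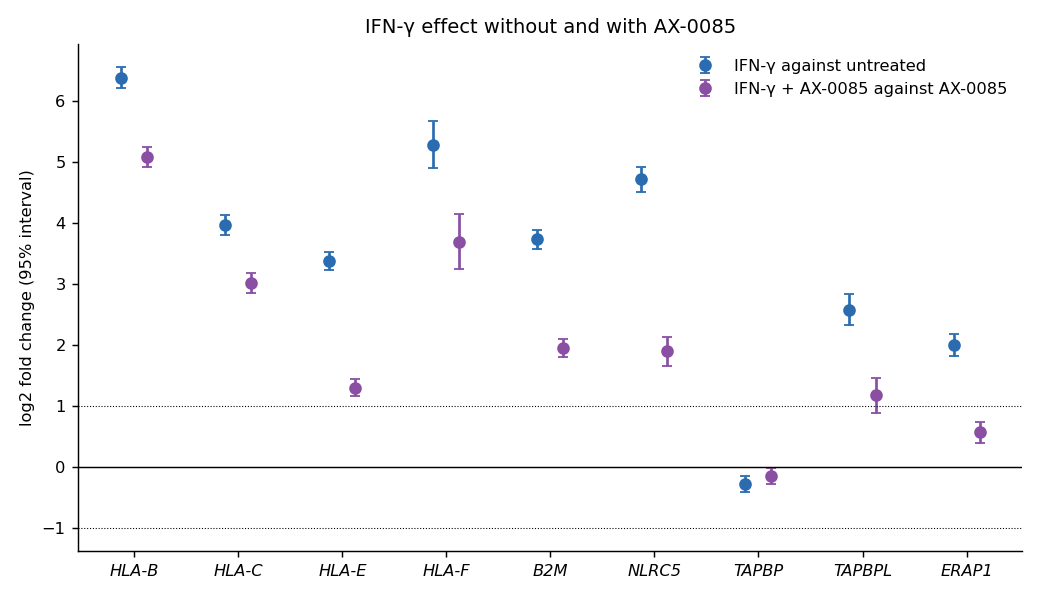
Log2 fold change of the 9 genes with IFN-γ against untreated cells, and with IFN-γ and AX-0085 against AX-0085 alone, with 95% intervals from the edgeR fit and dotted lines at the 2-fold threshold. The distance between the paired points is greatest for NLRC5, from 4.71 to 1.89, and among the 8 genes that rose it is least for HLA-C, from 3.96 to 3.01.

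The interaction, that is the IFN-γ effect with AX-0085 minus that without it, was called negative in 7 of the 9 genes, against 6.46% of all genes tested. By the adjusted p alone it was negative in 8, where 50.3% of all genes tested passed in either direction. It was -2.82 on the log2 scale for NLRC5 (SE 0.16, edgeR adjusted p = 2.749e-08) and -0.95 for HLA-C (SE 0.10, edgeR adjusted p = 4.778e-06), with the other 6 genes that IFN-γ raised in between. HLA-E came after NLRC5 with -2.08, and its level with AX-0085 alone, which enters this term, was above the untreated one. For TAPBP the term was 0.13 with a 95% interval from -0.06 to 0.32, and with library size alone, where the median of all genes was 0.17, it was 0.25 (edgeR adjusted p = 0.03784). NLRC5 counts per 1000 counts of the 4 HLA genes were 22.7 ± 2.10 (SD, n = 2) without treatment, 14.6 ± 0.720 under AX-0085, 31.1 ± 1.96 under IFN-γ and 9.02 ± 0.133 under the combination. The ratio was lowest with both treatments, where the HLA genes stood between their untreated and IFN-γ levels.

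Against untreated cells, those given both treatments had 8 of the 9 genes called higher, where 7.51% of all genes tested were. HLA-B was 29.6-fold higher (log2 change 4.89, SE 0.08, edgeR adjusted p = 3.126e-13), HLA-F 11.3-fold, HLA-C 7.96-fold, B2M 4.46-fold, HLA-E 4.21-fold, NLRC5 3.20-fold, ERAP1 2.39-fold and TAPBPL 2.15-fold. The log2 fold change of HLA-F, 3.50, was 4.14 without untreated replicate 1 and 3.14 without untreated replicate 2. TAPBP had a log2 fold change of -0.11 (SE 0.06, edgeR adjusted p = 0.144). The untreated libraries also enter the comparison with IFN-γ alone.

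The make-up of the HLA counts differed between the groups. HLA-B supplied 8.75% ± 0.156 (SD, n = 2) of the counts of the 4 HLA genes without treatment, 5.73% ± 0.0782 under AX-0085, 38.2% ± 0.275 under IFN-γ and 32.3% ± 0.471 under the combination. HLA-C supplied 41.1% ± 0.0389 (SD, n = 2), 30.5% ± 0.0554, 33.5% ± 0.674 and 40.8% ± 0.465 in the same order of groups, and HLA-E 49.5% ± 0.101, 63.4% ± 0.142, 27.0% ± 0.343 and 26.0% ± 0.0786. HLA-E thus led in both groups without IFN-γ, HLA-B with IFN-γ alone and HLA-C with both treatments. There were 0.213 ± 0.00359 (SD, n = 2) counts of HLA-B per count of HLA-C without treatment, 0.188 ± 0.00291 under AX-0085, 1.14 ± 0.0310 under IFN-γ and 0.791 ± 0.0205 under the combination. These are shares of counts, which also depend on transcript length.

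**Figure D4:**
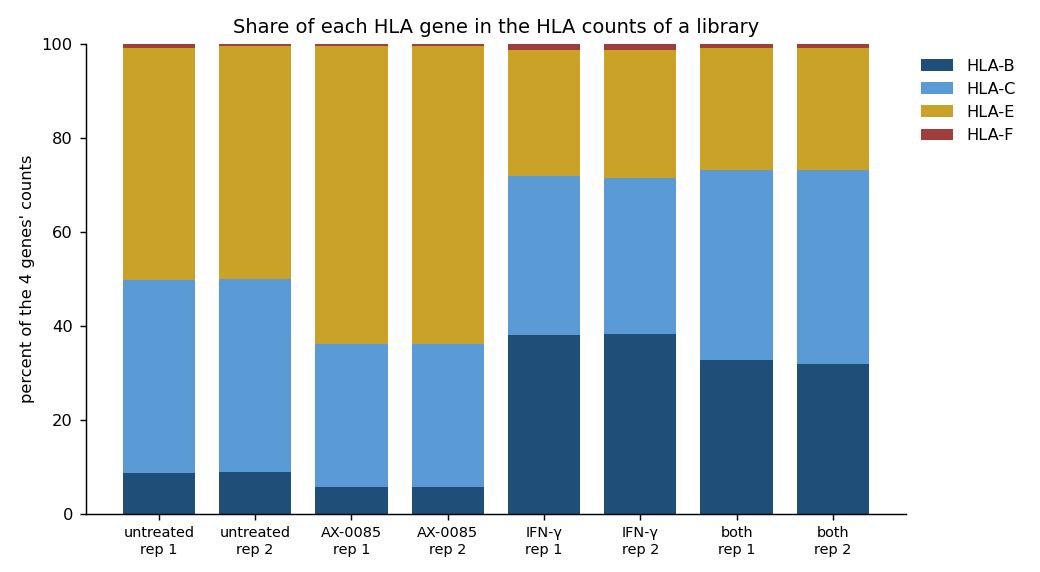
Percent of the summed HLA-B, HLA-C, HLA-E and HLA-F counts of each of the 8 libraries that came from each gene, as stacked bars. HLA-B takes 5.67% to 8.86% in the 4 libraries without IFN-γ and 32.0% to 38.4% in the 4 libraries with it.

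Levels of different genes were compared as RPKM (CPM per kilobase). By the length of the canonical transcript, B2M was the highest of the 9 in every group, at 226.8 ± 4.25 RPKM (SD, n = 2) without treatment, 263 ± 8.39 under AX-0085, 3008 ± 163 under IFN-γ and 1012 ± 11.8 under the combination. In untreated cells HLA-C followed at 39.5 ± 1.27 RPKM (SD, n = 2), then HLA-E at 28.8 ± 0.959, TAPBP at 25.2 ± 0.663 and HLA-B at 8.45 ± 0.415, with no overlap between neighbours. NLRC5 was the lowest in every group, at 0.497 ± 0.0613 RPKM (SD, n = 2) in untreated cells and 12.97 ± 0.0712 with IFN-γ, although in untreated cells its libraries overlapped with those of HLA-F.

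With IFN-γ, HLA-B was at 704 ± 35.4 RPKM (SD, n = 2), HLA-C at 617 ± 47.8 and HLA-E at 300.4 ± 13.5. The order depended on the length used. With the union of all annotated exons, HLA-B had 234 ± 11.8 RPKM (SD, n = 2) with IFN-γ and came after HLA-C at 379 ± 29.4 and HLA-E at 262 ± 11.7, and without IFN-γ the lowest gene was HLA-F in place of NLRC5. B2M was highest in every group with that length as well.

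A list of 47 other genes of the class I pathway was examined in the same way, and 41 of them passed the expression filter. IFN-γ raised 12 and lowered 2 of them past both thresholds, beside 10.3% and 17.2% of all genes tested, and their median log2 fold change was 0.30. After addition of AX-0085, 9 were called lower and 5 higher than with IFN-γ alone, beside 8.28% and 16.5% of all genes tested, with a median of -0.34. TAP1 and TAP2, the chains of the peptide transporter, ERAP2, another trimming enzyme, and IRF1, an interferon-induced transcription factor, are listed at 0 in all 8 libraries and give no measurement here.

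PSMB9, an immunoproteasome subunit gene, was at 10.8 ± 0.412 CPM (SD, n = 2) without treatment, 5.92 ± 0.238 under AX-0085, 320 ± 35.4 under IFN-γ and 34.8 ± 0.00905 under the combination. It rose 29.7-fold with IFN-γ and was 9.20-fold lower after addition of AX-0085. The other immunoproteasome genes, PSMB10 and PSMB8, rose 22.4-fold and 17.1-fold and were then 7.25-fold and 3.09-fold lower. PSME2 and PSME1, which encode the proteasome activator PA28, rose 5.10-fold and 4.54-fold and were then 4.54-fold and 2.33-fold lower. LAP3, a cytosolic leucine aminopeptidase, rose 4.85-fold and was then 6.15-fold lower. All 6 were called in both comparisons. The peptidase genes NPEPPS, THOP1, BLMH, LNPEP, TPP2 and NRDC were called in neither, with log2 fold changes between -0.51 (NPEPPS) and 0.32 (NRDC) for IFN-γ and between -0.39 (TPP2) and 0.11 (NPEPPS) after the inhibitor.

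HLA-G, another non-classical heavy chain gene, rose 26.4-fold with IFN-γ. After the inhibitor its log2 fold change was -0.70 (SE 0.24, edgeR adjusted p = 0.0204), so that it was not called. HLA-G had only 7 and 1 counts in untreated cells. HSPA5, a chaperone of the endoplasmic reticulum, rose 2.75-fold with IFN-γ and was 2.02-fold lower after addition of AX-0085. CALR, the calreticulin of the loading complex, was 4.00-fold lower with IFN-γ, and its log2 fold change upon addition of AX-0085 was 0.73 (SE 0.06, edgeR adjusted p = 9.605e-08), which was not called.

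Among transcription factors, the NF-κB genes RELA and NFKB1 had log2 fold changes of 1.17 and 0.98 with IFN-γ and of -0.76 and -1.12 upon addition of AX-0085, of which the rise of RELA and the fall of NFKB1 were called. ATF1, of the CREB family, rose 2.21-fold with IFN-γ. RFX5, a subunit of the RFX complex that binds the X box, had log2 fold changes of -0.82 with IFN-γ and 0.76 upon addition of AX-0085 (SE 0.08 for each, edgeR adjusted p = 5.449e-07 and 1.329e-06) and was not called. Its partner RFXAP had -0.54 with IFN-γ and 1.03 after the inhibitor, which was called as a rise.

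**Figure D5:**
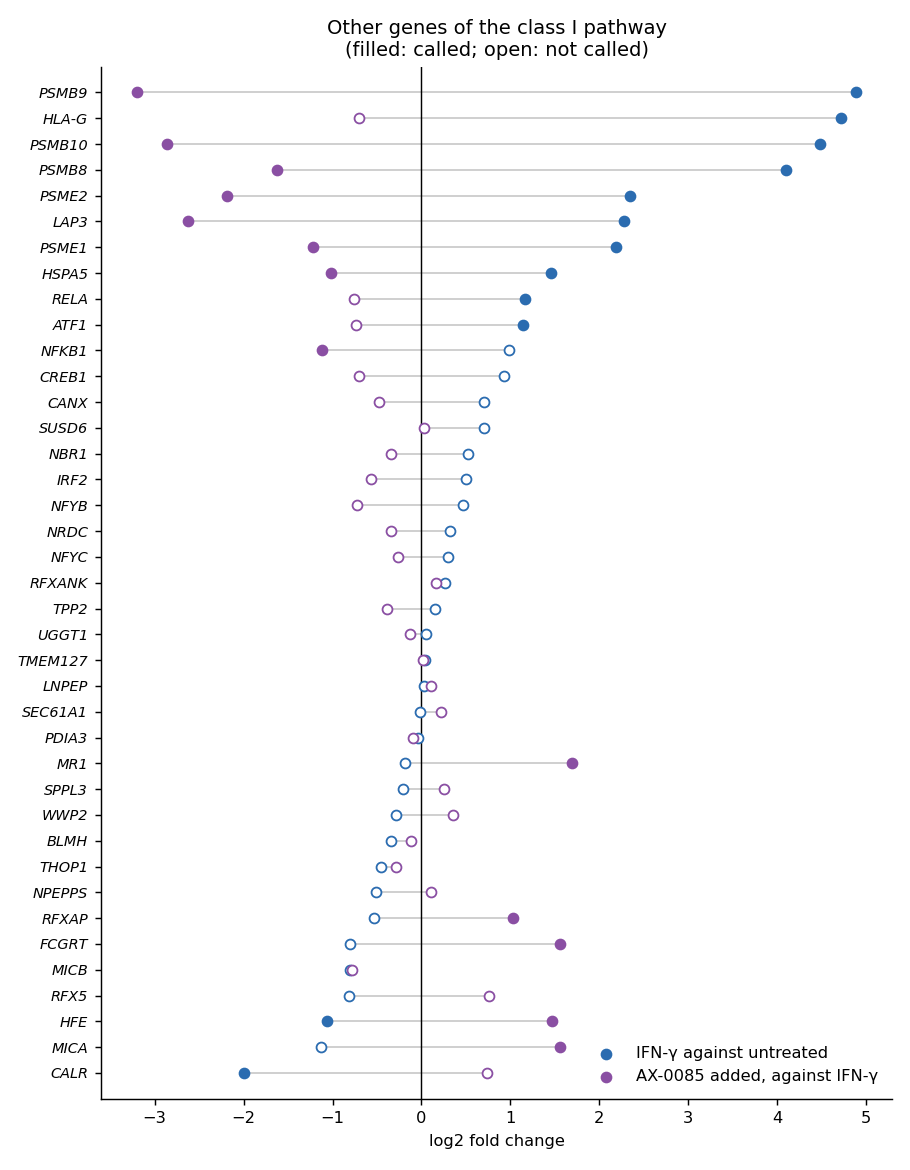
Log2 fold change of the other genes of the class I pathway that are reported here with IFN-γ against untreated cells and after addition of AX-0085 against IFN-γ alone, in order of the IFN-γ change, with filled points for genes past both thresholds. The immunoproteasome genes PSMB8, PSMB9 and PSMB10 are filled at both ends, while HLA-G is filled only for IFN-γ.

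The genes with the log2 CPM most like that of NLRC5 and of B2M over the 8 libraries were sought by Pearson's r among 10122 genes. For NLRC5 these were TYMP, CEP170B, RPF2 and MCPH1, each with r = 0.999. For B2M they included PLAAT4 and AKAP8L, each with r = 0.999, and PSMB8 with r = 0.998. TYMP, which encodes thymidine phosphorylase, had a mean log2 CPM of 2.71 in untreated cells, 2.39 with AX-0085, 6.92 with IFN-γ and 4.28 with both. PLAAT4 had 0.32, 0.63, 5.60 and 3.40 in the same order. A high r reflects the shape of a profile and not its size, and CEP170B, at a mean log2 CPM of 5.43 in untreated cells and 6.59 with IFN-γ, had a much smaller range than NLRC5. The points share their libraries and fall into 4 pairs, so these values are a description.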

How the data were processed

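Per the submitters' processing notes and the study's methods, the authors trimmed paired-end reads of stranded mRNA libraries with Trim Galore 0.6.7, mapped them to GRCh38 with STAR 2.7.9a and deposited raw read counts per gene from featureCounts, whole numbers without normalization. The annotation release, the strand setting and the treatment of reads mapping to several places are not given in the sources used here. Of 60664 gene identifiers 60463 matched a symbol in GENCODE 44, from which positions, lengths and overlaps were taken.

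Counts were filtered (filterByExpr), scaled (TMM) and tested with the quasi-likelihood test of edgeR 4.0.16 in R 4.3.3, with 4 groups in 1 model, no covariate and Benjamini-Hochberg adjustment over 15066 genes. The standard error is the size of the log2 fold change divided by the root of F. Log2 CPM used a prior count of 0.125. The procedure was tested on simulated counts. The alternatives were the Wald test of DESeq2 1.42.0, RLE size factors, library size alone, no filter, a minimum of 10 counts per library, a fit of the compared groups, no fold threshold, a replicate block, summed HLA counts and leaving out each library. Chosen after seeing the data were a block with the untreated numbers swapped and the length of the canonical transcript.

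The 9 genes and the lists were chosen with earlier results of these data known. The genes named are these 9, the pathway genes called with IFN-γ or upon addition of AX-0085, TAP1, TAP2, PSMB8, PSMB9, IRF1 and RFX5, and, from those averaging 2 or more in log2 CPM, the 4 most correlated with NLRC5 and with B2M. ERAP2, MICB and the peptidase genes that were not called were named, and the ratios between genes chosen, after values were seen. Some genes that this rule names are not reported here.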

Additional observations from a re-analysis of the deposited data

Results flagged for a closer look

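The IFN-γ effect differed between cells with AX-0085, added 24 h after IFN-γ, and cells without it in 8 of the 9 genes. This was tested by the interaction term in edgeR at an adjusted p under 0.05, which 50.3% of all genes tested reached. The IFN-γ effect with AX-0085 minus that without it was, on the log2 scale, -1.30 for HLA-B, -0.95 for HLA-C, -2.08 for HLA-E, -1.59 for HLA-F, -1.78 for B2M, -2.82 for NLRC5, -1.40 for TAPBPL and -1.43 for ERAP1. HLA-F had the largest of these adjusted p-values (SE 0.35, edgeR adjusted p = 0.002287), and its values without IFN-γ rest on 15 to 36 counts. Its term was -2.21 without untreated replicate 1 and -1.23 without untreated replicate 2.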

How the results depend on the processing

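The number of the 9 genes called was 8 for IFN-γ, 6 after AX-0085 was added, 0 with AX-0085 alone, 7 for both against AX-0085, 8 for both against untreated cells and 7 for the interaction. With the adjusted p alone, 3 were called with AX-0085 alone, where the summed HLA counts then passed at 0.42. Of the 41 other pathway genes tested, 33, 33, 22, 22, 27 and 28 then passed in the same order of comparisons. With both thresholds 14, 14, 2, 4, 8 and 10 were called. Of all genes tested, 53.3% passed by the adjusted p alone for AX-0085 alone and 50.3% for the interaction. With both thresholds 12% of all genes tested were called for AX-0085 alone. No share of all genes in either direction is given here for the other comparisons, so these counts are not read as a result about the pathway. With the HLA genes summed into 1 feature, which leaves 6 features, 5 were called with IFN-γ, 4 for both against AX-0085 and 5 for both against untreated cells. Of the fold changes of single genes under the alternatives, 424 with a library left out and 465 otherwise kept their direction and side of the threshold. In the same order, 3 and 11 were called where the main test did not call them, and 5 and 1 turned in sign. The 11 include those of the setting without a fold threshold. Those that turned in sign were all of AX-0085 alone and not called: HLA-C at 0.0012 with at least 10 counts in every library, and with a library left out HLA-C (from -0.082 to 0.048), HLA-F (from -0.55 to 0.42) and TAPBPL (from -0.21 to 0.062). The cause was not tested. With each library left out in turn, 8 genes were called for IFN-γ, 6 to 7 after AX-0085 was added, 0 with AX-0085 alone, 7 for both against AX-0085, 8 for both against untreated cells and 7 to 8 for the interaction, and the summed HLA change with IFN-γ lay between 4.21 and 4.36. The interaction needs all 4 groups and was not fitted on fewer.

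Between libraries with the same replicate number, departures from the group mean correlated at -0.356 to 0.346, so the numbers were not taken to pair the libraries. With the replicate block 8, 6, 0, 7, 8 and 7 of the 9 genes were called in the order above, and as many when the untreated numbers were exchanged. Depth limits the values of HLA-F and HLA-G without IFN-γ and of MICA in all groups, which rest on few counts.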

Other observations

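Among genes for class I-like surface proteins, MR1, which presents vitamin B metabolites to MAIT cells, was at 11.3 ± 0.725 CPM (SD, n = 2) without treatment, 31.9 ± 0.169 under AX-0085, 9.87 ± 0.366 under IFN-γ and 32.1 ± 0.0824 under the combination. It rose with AX-0085 alone by 1.502 on the log2 scale, and by 1.70 when the inhibitor followed IFN-γ (SE 0.08 for each, edgeR adjusted p = 1.113e-08 and 1.8e-09). HFE, a regulator of iron uptake, was 2.09-fold lower with IFN-γ and rose 2.78-fold after addition of AX-0085. FCGRT, the neonatal Fc receptor, had a log2 fold change of -0.80 with IFN-γ, which was not called. It rose by 1.56 once the inhibitor was added. With AX-0085 alone against untreated cells the log2 fold change was 0.76 for FCGRT and 0.33 for HFE, neither called. FCGRT was at 40.4 ± 2.14 CPM (SD, n = 2) with AX-0085 alone and 40.2 ± 2.42 with both treatments. MICA and MICB encode stress ligands of the NKG2D receptor. MICA had at most 21 counts in a library, and its rise of 1.55 upon addition of AX-0085 rests on 1 and 7 counts with IFN-γ. MICB was at 11.3 ± 0.370 CPM (SD, n = 2) in untreated cells and 3.50 ± 0.161 with AX-0085, a log2 fold change of -1.69 (SE 0.14, edgeR adjusted p = 3.661e-07). After AX-0085 followed IFN-γ its log2 fold change was -0.78 (SE 0.15, edgeR adjusted p = 0.0004009), which was not called.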
